A study of Canis lupus familiaris with 8 samples.

Results

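B cell identity and B cell receptor signalling were followed through 31 genes, chosen by symbol as genes that B cells use to fix their identity or to pass on the signal of their receptor. Of these, 29 had a row in the count tables, out of 35048 rows in all, and all 29 passed the filter on low counts. BTK, a kinase of the receptor pathway, and CR2, a complement receptor, were not analysed here. RNA came from peripheral blood mononuclear cells, a fraction of blood made up mostly of lymphocytes and monocytes. It was read as 3′ tag libraries, in which each transcript gives a read close to its 3′ end. There were 5 obese dogs, namely a Dachshund (dog 1), a Chihuahua (dog 2), 2 Labrador retrievers (dogs 3 and 4) and a Welsh Corgi (dog 5). The normal group held 3 Beagles. For age, sex, diet and the scoring of obesity the labels used here give nothing. Since Beagles made up the whole normal group and none of the obese group, body condition and breed cannot be told apart in any comparison below.

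A B cell senses antigen through a membrane immunoglobulin that is paired with CD79A and CD79B, the chains that carry the signal into the cell. The SRC-family kinases LYN and BLK phosphorylate these chains, SYK then binds them, and the adaptor BLNK brings the enzyme PLCG2 to the membrane, while CD22 and CD72 dampen the signal. The transcription factors EBF1 and PAX5 commit a cell to the B lineage and keep it there until it becomes a plasma cell, when PAX5 and many surface proteins are switched off. Several of these proteins are not particular to B cells: SYK, LYN, PLCG2, HHEX, LY86 and others are also made by myeloid cells, and BACH2 by T cells. The 29 genes were therefore also read as 14 that blood B cells mainly make ("B-restricted", from general knowledge) and 15 that other blood cells share.

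No gene among the 29 passed the threshold between obese and normal dogs. With edgeR's quasi-likelihood test and Benjamini-Hochberg adjustment over 20632 genes, 0 of the 29 had an adjusted p under 0.05 (range 0.152 to 0.983), where 0.233% of all genes passed (0.0485% higher and 0.184% lower in the obese dogs). At an unadjusted p under 0.05 there were 6 genes of 29 (20.7%), against 15.7% of all genes tested. The 2 groups did not overlap in 1 of the 29 genes (3.45%), against 10.9% of all genes (5.75% higher and 5.16% lower in the obese dogs). A positive log2 fold change (obese minus normal) was found for 15 of 29 genes (51.7%), against 55.3% of all genes, and the medians were 0.27 and 0.09. DESeq2 called 2 of the 29, both lower in the obese dogs, where it called 2.07% of all genes lower and 2.90% higher, 4.98% in all. These are bulk samples, so fewer cells of a type and less RNA per cell cannot be told apart.

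Levels are given as CPM, counts scaled to the library size after TMM correction, as mean ± SD over 5 obese and 3 normal dogs. In a 3′ tag library a transcript should give about 1 tag whatever its length, so that CPM values were compared between genes without a length correction. Whether the counts used here are free of gene length was not tested. A level also depends on how well the annotation behind the counts covers a gene's 3′ end, which was not tested, so that a low value such as that of CD79A or MS4A1 need not mean little RNA. The levels spread over a wide range: 3 of the 29 genes stayed under 5 CPM in every dog, and 4 stayed over 100 CPM in every dog. The genes under 5 CPM were MS4A1, VPREB3 and SPIB, and those over 100 CPM were SYK, LYN, BACH2 and AFF3. All 4 of the abundant genes belong to the shared class.

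**Figure D1:**
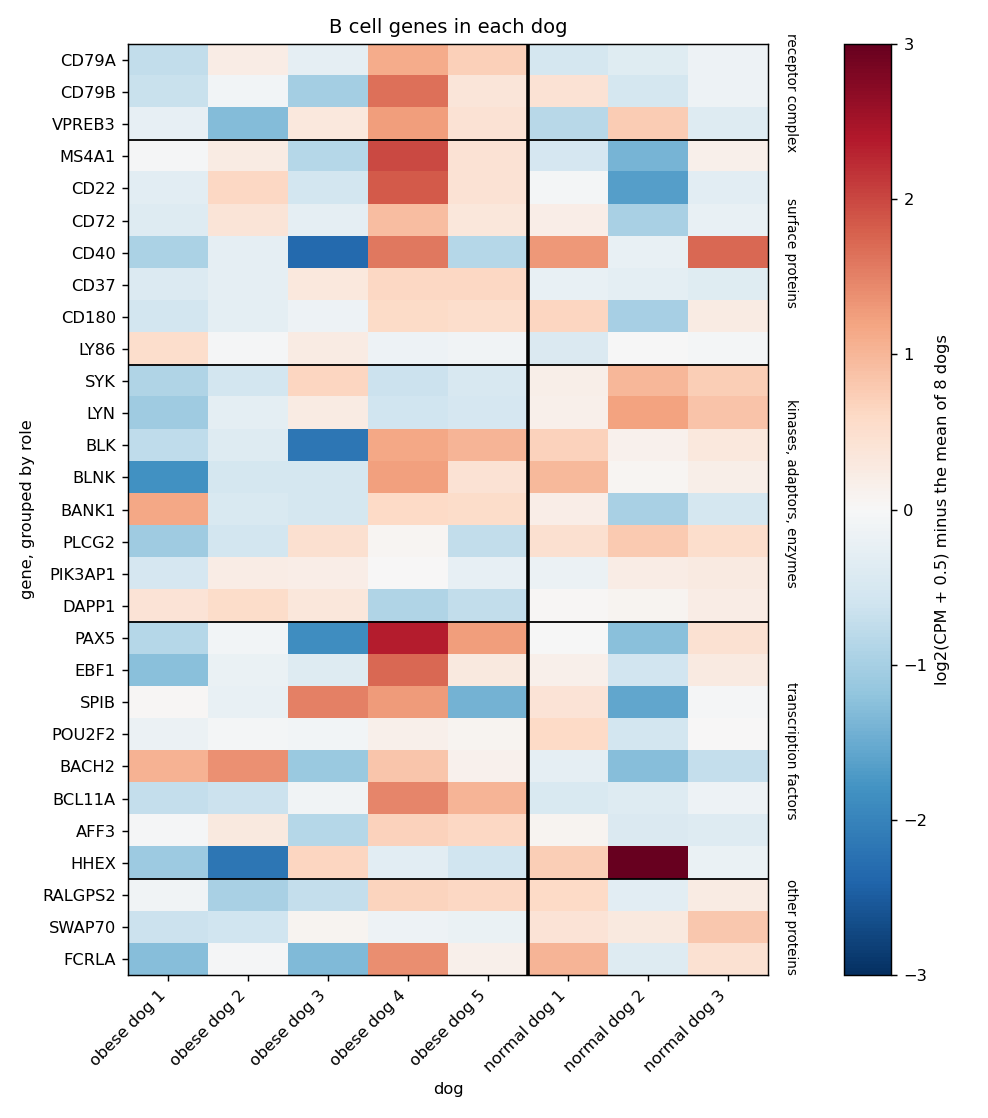
Level of the 29 B cell genes (rows, grouped by role) in each of the 8 dogs (columns), drawn as log2(CPM + 0.5) minus that gene's mean over the 8 dogs, red above and blue below the mean. The column of obese dog 4 is the reddest for most receptor and lineage genes, whereas SYK, LYN, PLCG2 and SWAP70 are redder in the normal dogs than in most obese dogs.

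The genes of the receptor complex had weak signals and overlapped between the groups. CD79A had 1.59, 3.57, 2.38, 7.03 and 5.25 CPM in obese dogs 1 to 5 and 1.90, 2.21 and 2.62 CPM in normal dogs 1 to 3. The 3 normal dogs lay within a narrow band, and obese dogs 2, 4 and 5 lay above it while obese dog 1 lay below. The 95% Poisson intervals of obese dogs 1 and 2, 0.868 to 2.66 and 2.68 to 4.66 CPM, overlapped those of all 3 normal dogs. Those of obese dogs 4 and 5 did not. The log2 fold change of CD79A was 0.83 with a standard error of 0.548 (adjusted p = 0.498, edgeR). CD79B had 8.28, 12.8, 6.46, 43.7 and 17.5 CPM in the obese dogs, against 18.6, 9.18 and 12.2 CPM in the normal dogs. Only obese dog 4 exceeded the normal range for CD79B, and obese dogs 1 and 3 lay below it. VPREB3, which binds newly made immunoglobulin chains in the endoplasmic reticulum, had 0.681, 0.0661, 1.25, 2.84 and 1.40 CPM in the obese dogs, against 0.281, 1.88 and 0.574 CPM in the normal dogs. VPREB3 rested on 1 to 51 counts a library, so that its order between dogs was poorly resolved. The 95% Poisson interval of obese dog 4, 2.12 to 3.74 CPM, overlapped that of normal dog 2, 1.10 to 3.01 CPM. CD79B and VPREB3 had adjusted p-values of 0.774 and 0.841 (edgeR).

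Among the surface proteins the B cell antigen MS4A1 (CD20), a membrane protein targeted by therapeutic antibodies, gave few tags. MS4A1 had 0.794, 1.06, 0.227, 4.68 and 1.28 CPM in the obese dogs, against 0.422, 0 and 0.957 CPM in the normal dogs. Obese dog 4, with 84 counts and a 95% Poisson interval of 3.74 to 5.80 CPM, stood above every other dog. Normal dog 2 had 0 counts, which allows up to 0.332 CPM (3 counts in that library, a one-sided limit), and obese dog 3 had 2 counts with an interval of 0.0275 to 0.819 CPM. The log2 fold change of MS4A1 was 1.75 with a standard error of 1.09 (adjusted p = 0.471, edgeR).

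CD22, a sialic acid-binding inhibitory coreceptor, had 13.5 ± 10.3 CPM in the obese dogs, against 5.61 ± 2.93 CPM in the normal dogs (adjusted p = 0.361, edgeR). Its obese values ran from 5.56 to 31.1 CPM with a median of 11.4, and its normal values from 2.32 to 7.94 CPM. CD72, another inhibitory coreceptor, had 5.69 ± 2.33 against 3.76 ± 1.62 CPM. CD37, a tetraspanin of mature B cells and other leukocytes, had 119 ± 37.8 against 81.7 ± 4.43 CPM, with the 3 normal dogs close together and obese dogs 3, 4 and 5 above them. CD40, the receptor through which T cells license B cells, went the other way in its mean, with 2.06 ± 2.83 against 5.02 ± 3.11 CPM. CD40 gave 0 counts in obese dog 3, which allows up to 0.340 CPM there, and 7.03 CPM in obese dog 4, within the normal range of 1.66 to 7.78 CPM. CD180, a Toll-like receptor homologue, and its partner LY86 (MD-1) had log2 fold changes of −0.03 and 0.27. Of these 6 surface proteins the smallest adjusted p was that of CD22.

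**Figure D2:**
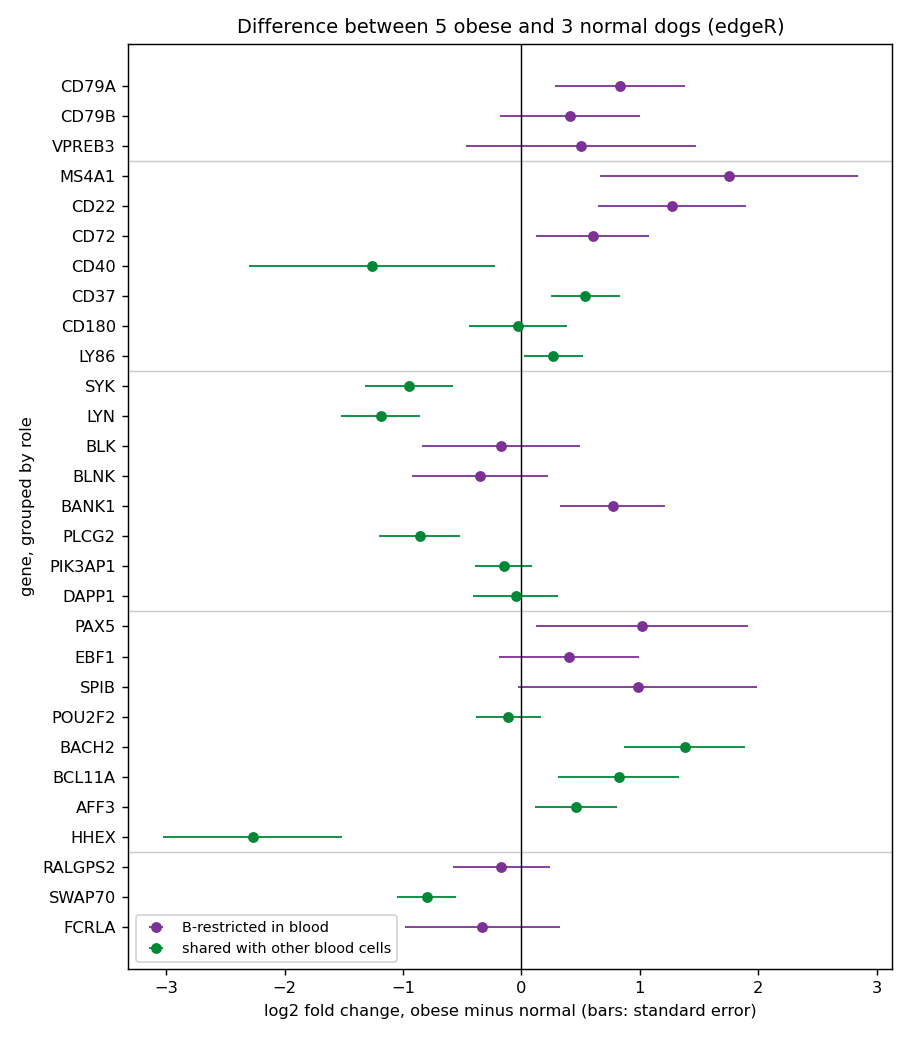
Log2 fold change of each of the 29 genes, obese minus normal, from edgeR, with its standard error as a bar, coloured by whether blood B cells mainly make the gene (purple) or other blood cells share it (green). No gene passed the threshold, and LYN had the smallest adjusted p, 0.152.

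The kinases and enzymes of the receptor pathway held the 3 signalling genes with the smallest p-values, all with lower means in the obese dogs. LYN, which starts the signal and also turns it off, had 176, 301, 438, 246 and 263 CPM in the obese dogs, against 414, 865 and 678 CPM in the normal dogs. Only obese dog 3 reached into the normal range. LYN had 285 ± 96.8 CPM in the obese dogs, against 653 ± 227 CPM in the normal dogs, a log2 fold change of −1.19 with a standard error of 0.331 (adjusted p = 0.152, edgeR). SYK, the kinase that docks on the phosphorylated receptor, had 265, 341, 780, 318 and 355 CPM in the obese dogs, against 564, 994 and 829 CPM in the normal dogs. Again obese dog 3 alone overlapped the normal dogs, and the log2 fold change of SYK was −0.95 with a standard error of 0.370 (adjusted p = 0.265, edgeR). PLCG2, the phospholipase that releases calcium, had 62.5, 88.5, 184, 136 and 78.6 CPM in the obese dogs, against 184, 226 and 188 CPM in the normal dogs. Obese dog 3 was level with normal dog 1 for PLCG2, and the other 4 obese dogs lay below all normal dogs. The log2 fold change of PLCG2 was −0.86 (standard error 0.340, adjusted p = 0.269, edgeR).

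The other 5 signalling genes, 3 of them B-restricted and 2 shared, did not separate obese dogs 1, 2, 4 and 5 from the normal dogs. BLK, an SRC-family kinase of B cells, ran from 1.59 to 20.5 CPM with a median of 6.74 in the obese dogs, and from 9.74 to 14.8 CPM in the normal dogs. BLNK, the adaptor that joins SYK to PLCG2, ran from 7.94 to 69.6 CPM in the obese and from 30.3 to 57.9 CPM in the normal dogs. For both genes the obese dogs spread on either side of the normal range. BANK1, a scaffold that binds LYN and calcium channels, had 81.8, 26.1, 24.8, 54.6 and 53.5 CPM in the obese dogs, against 41.6, 18.1 and 24.9 CPM in the normal dogs. Obese dogs 1, 4 and 5 lay above the normal range, and the log2 fold change of BANK1 was 0.77 (standard error 0.444, adjusted p = 0.429, edgeR). PIK3AP1 (BCAP), which recruits PI3-kinase, had 116 ± 23.7 against 129 ± 20.7 CPM, and DAPP1, an adaptor that binds PI3-kinase products, had 83.4 ± 35.3 against 86.4 ± 5.71 CPM. Of the 8 pathway genes measured, 7 had a negative fold change, BANK1 being the exception, and the median was −0.26.

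The lineage transcription factors had a larger SD among the obese dogs than the difference between the group means. PAX5 had 9.30, 16.3, 4.42, 89.7 and 41.9 CPM in the obese dogs, against 17.0, 6.97 and 23.9 CPM in the normal dogs. Obese dogs 4 and 5 exceeded all normal dogs and obese dog 3 lay below them. PAX5 had a log2 fold change of 1.02 with a standard error of 0.897 (adjusted p = 0.619, edgeR). EBF1 had 17.9, 37.6, 33.0, 145 and 53.1 CPM in the obese dogs, against 48.5, 29.2 and 52.9 CPM in the normal dogs, with a log2 fold change of 0.40 (adjusted p = 0.784, edgeR). For EBF1 obese dog 4 alone stood clearly above the normal dogs, since obese dog 5 was level with normal dog 3. Obese dog 1 lay below all normal dogs. SPIB, an ETS factor of B cells and plasmacytoid dendritic cells, was the B-restricted gene with its highest value in obese dog 3, at 4.65 CPM (41 counts, 95% Poisson interval 3.34 to 6.31), and it had 1 count in normal dog 2.

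Among the transcription factors shared with other cells, BACH2 and HHEX had the largest differences, in opposite directions. BACH2, a repressor that holds B cells back from plasma cell fate and keeps T cells quiescent, had 1402, 1761, 311, 1206 and 736 CPM in the obese dogs, against 558, 277 and 414 CPM in the normal dogs. Obese dogs 1, 2, 4 and 5 lay above all normal dogs, and obese dog 3 lay between normal dogs 2 and 3. The log2 fold change of BACH2 was 1.38 with a standard error of 0.512 (adjusted p = 0.248, edgeR). HHEX, a homeobox factor of early blood and B cells, had 11.5, 5.22, 39.7, 20.0 and 16.3 CPM in the obese dogs, against 42.2, 203 and 22.0 CPM in the normal dogs. Normal dog 2 held most of the normal total, and without it the log2 fold change of HHEX moved from −2.27 to −0.82. BCL11A, needed for early B cell development, had 112 ± 77.9 against 63.9 ± 7.49 CPM, with 224 and 164 CPM in obese dogs 4 and 5 and the other obese dogs at 48.5 to 74.3 CPM. AFF3 had 313 ± 115 against 227 ± 47.9 CPM, and POU2F2 (OCT2), which binds the octamer of immunoglobulin promoters, had 48.0 ± 4.55 against 51.7 ± 20.4 CPM.

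SWAP70 was the gene of the 29 whose groups did not overlap. This protein, which acts in the nucleus and at the actin skeleton of activated B cells and is also made by myeloid cells, had 28.4, 29.4, 47.1, 40.5 and 39.2 CPM in the obese dogs, against 59.5, 55.3 and 78.2 CPM in the normal dogs. Every obese dog was below every normal dog, and the log2 fold change of SWAP70 was −0.80 with a standard error of 0.250 (adjusted p = 0.189, edgeR). RALGPS2, a guanine nucleotide exchange factor, had 156 ± 76.6 against 176 ± 54.8 CPM. FCRLA, an intracellular Fc receptor-like protein of B cells, had 7.83 ± 6.86 against 9.88 ± 4.75 CPM. RALGPS2 and FCRLA each peaked in obese dog 4 and had adjusted p-values of 0.870 and 0.844 (edgeR).

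**Figure D3:**
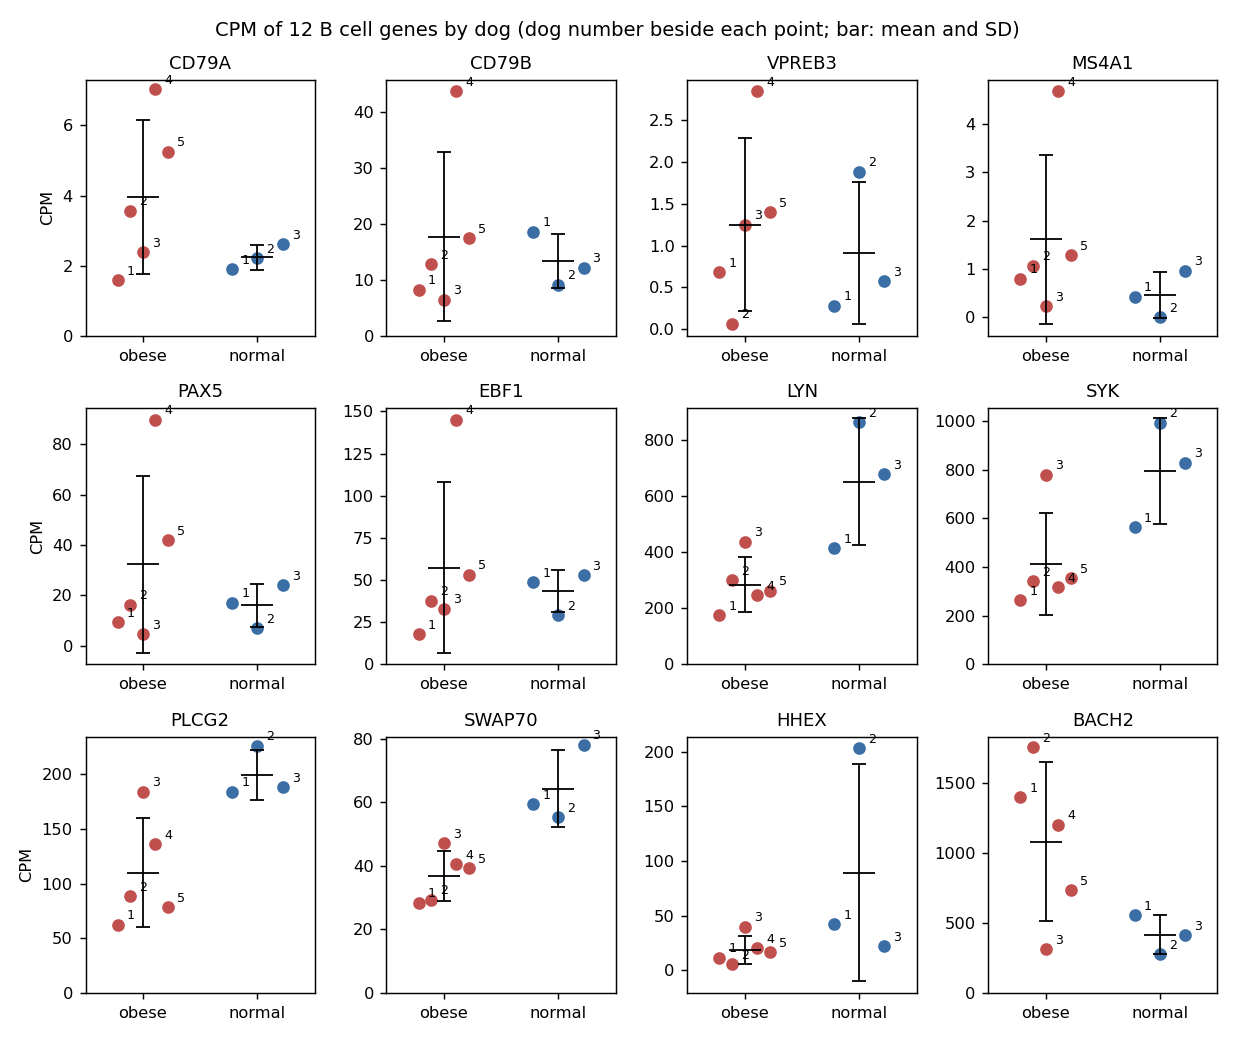
CPM of 12 of the genes in each dog, obese in red and normal in blue, with the dog number beside each point and the mean and SD as a bar. Obese dog 4 is highest for CD79A, CD79B, VPREB3, MS4A1, PAX5 and EBF1, and for SYK, LYN and PLCG2 the obese dog nearest to the normal dogs is dog 3.

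Obese dog 4 held the highest level of most B-restricted genes. It was the highest of the 8 dogs in 12 of the 14 B-restricted genes (85.7%), the exceptions being BANK1 and SPIB, and in 2 of the 15 shared genes (13.3%). Over all genes tested it was the highest in 9.59%. The mean log2 CPM of the 14 genes was 4.61 in obese dog 4 and 3.54 in obese dog 5. It was 2.61, 2.89 and 2.49 in obese dogs 1, 2 and 3, and 3.31, 2.34 and 3.17 in the normal dogs. Obese dogs 4 and 5 therefore lay above all normal dogs, and obese dogs 1, 2 and 3 lay within the normal range. Obese dogs 3 and 4 are both Labrador retrievers, and 13 of the 14 genes were higher in dog 4, with a median ratio of 3.92. Their libraries also differed in other cell markers. Summed neutrophil markers were 7984 CPM in dog 3 and 520 CPM in dog 4, and summed erythroid markers 1195 and 26.9 CPM. PAX5 was 20.3 times higher in dog 4 than in dog 3, CD79B 6.75 times and EBF1 4.38 times. In the shared genes the median of that ratio was 0.865 over the 14 with counts in both dogs. At the low end, normal dog 2 had the lowest level in 5 of the 14 B-restricted genes (35.7%, against 16.1% of all genes) and obese dog 3 in 4 (28.6%, against 22.2%).

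None of the B-restricted genes was called, and their median log2 fold change was lower without obese dog 4. Their median log2 fold change was 0.55 with all dogs, with 10 of 14 above 0, and 0.05 without obese dog 4. The within-group SD of their mean log2 CPM was 0.774. PAX5 went from 1.02 to 0.17 and MS4A1 from 1.75 to 0.82, while CD79B and EBF1 went to −0.25 and −0.30. CD22, BANK1, SPIB, CD79A and CD72 stayed above 0 without obese dog 4, at 0.70, 0.72, 0.67, 0.52 and 0.35. VPREB3, BLK, BLNK, RALGPS2 and FCRLA were below 0 in that fit. The shared genes had a median of −0.11 with all dogs and −0.17 without obese dog 4.

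Among the edgeR fits, shared genes were called only without obese dog 3. The share of all genes called also rose in that fit, from 0.233% to 8.28%. The library of obese dog 3 had 7984 CPM over the 12 neutrophil markers and 1195 CPM over the 10 erythroid markers. Its neutrophil sum lay within the normal range of 2128 to 8415 CPM, and the other obese dogs had 344 to 1242 CPM. Without obese dog 3 the groups therefore did not overlap in that sum. The part of this in the calls was not tested. In the fit without obese dog 3, 5 of the 29 genes passed, 1 higher and 4 lower in the obese dogs, where 8.28% of all genes did (3.25% higher and 5.03% lower). LYN fell by 1.43 on the log2 scale (adjusted p = 0.0183, edgeR), SYK by 1.35 (adjusted p = 0.0132), PLCG2 by 1.16 (adjusted p = 0.0301) and SWAP70 by 0.94 (adjusted p = 0.0378), and BACH2 rose by 1.58 (adjusted p = 0.0256). HHEX had an adjusted p of 0.0567 in that fit. A limma-voom fit that keeps all dogs and weights the libraries by quality passed the same 5 genes. Its adjusted p-values ran from 0.00532 for LYN to 0.0207 for PLCG2, where it passed 17.8% of all genes (8.45% higher and 9.34% lower). It gave obese dog 3 the lowest weight of the libraries, 0.277, and normal dog 3 the highest, 3.275. The limma-voom calls are therefore not independent of those without obese dog 3. DESeq2 passed LYN and HHEX, each with an adjusted p of 0.0388. None of the 14 B-restricted genes passed in any of the 16 alternative fits, DESeq2 included, although the stricter filter left out MS4A1 and VPREB3.

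**Figure D4:**
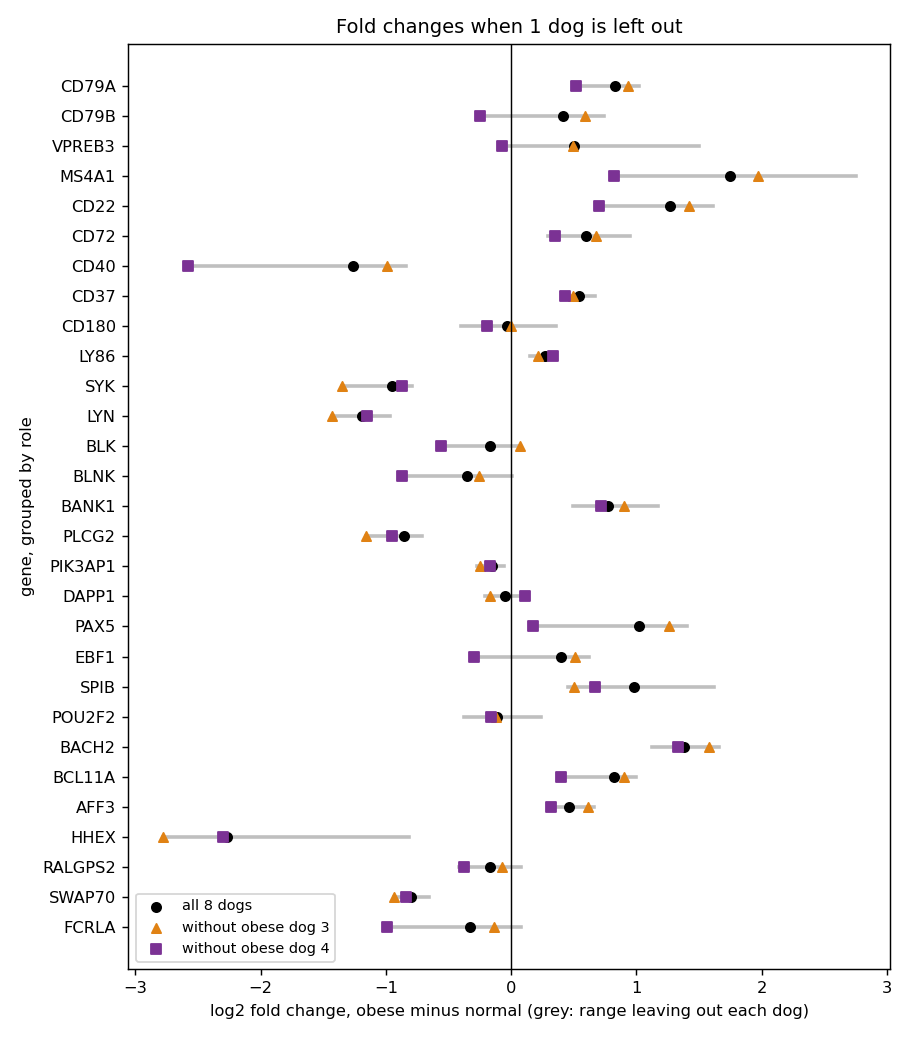
Log2 fold change of each gene with all 8 dogs (black circle), without obese dog 3 (orange triangle) and without obese dog 4 (purple square), with the range over leaving out each dog in turn as a grey bar. Leaving out obese dog 4 moved PAX5, MS4A1, EBF1 and CD79B to the left, and leaving out obese dog 3 moved LYN, SYK and PLCG2 away from 0.

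Markers of other blood cells were read in the same libraries, and some of the lists differed between the groups while others overlapped. The 12 neutrophil markers summed to 344 to 7984 CPM in the obese and 2128 to 8415 CPM in the normal dogs, led by S100A8 and S100A12. They were 344 to 1242 CPM in the obese dogs other than dog 3. Of these 12 markers, 8 had a log2 fold change below 0 and 4 above, with a median of −0.88. Only 1 had an unadjusted p under 0.05 (8.33%, edgeR), against 15.7% of all genes tested. The 12 monocyte markers with a row, led by VCAN, summed to 816 to 1791 CPM in the obese and 1626 to 2895 CPM in the normal dogs. VCAN alone had 214, 201, 851, 297 and 325 CPM in the obese dogs, against 1297, 2191 and 920 CPM in the normal dogs. Most of the list did not go that way, with 7 of the 12 monocyte markers above and 5 below 0 and a median log2 fold change of 0.13. In obese dogs 1, 2, 4 and 5 both sums, and the levels of SYK, LYN, PLCG2 and HHEX, were below those of obese dog 3 and of every normal dog. The part of neutrophils and monocytes in those differences was not tested. The 17 T cell markers summed to 1300 to 2337 CPM in the obese and 805 to 927 CPM in the normal dogs, beside the BACH2 values above. Of the 17, 16 had a positive log2 fold change, among them IL7R at 1.88. CD4, the other of the most abundant markers, was the exception at −1.09. It had 586 CPM in obese dog 3, 29.9 to 51.2 CPM in the other obese dogs and 114, 363 and 459 CPM in the normal dogs. CD4 thus made up 586 of 1300 CPM of the T cell sum in obese dog 3 and 459 of 927 CPM in normal dog 3. Whether these CD4 tags came from T cells alone was not tested. The part of T cells in the BACH2 difference was not tested. Natural killer cell markers (10 genes) summed to 55.9 to 157 CPM in the obese and 55.7 to 81.5 CPM in the normal dogs. Plasmacytoid dendritic cell markers (12 genes with a row) summed to 190 to 264 CPM and 194 to 254 CPM. Platelet markers (9 genes with a row, GP1BB at 0 in all 8 libraries) summed to 110 to 2678 CPM in the obese and 31.4 to 52.1 CPM in the normal dogs. Erythroid markers summed to 19.0 to 60.1 CPM in the obese dogs other than dog 3 and 16.9 to 19.1 CPM in the normal dogs.

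Plasma cell markers separated the groups, which the B-restricted genes did not. Within the normal group both sets had the same order of dogs in mean log2 CPM. Among the obese dogs, dog 4 and then dog 5 were highest in both sets. The 13 markers summed to 437 to 942 CPM in the obese and 1126 to 1903 CPM in the normal dogs, without overlap. ELL2 was the most abundant of them in every dog, making up 649 of 1903 CPM for normal dog 1 and 829 of 1126 CPM for normal dog 2. ELL2 itself overlapped between the groups (log2 fold change −0.81, adjusted p = 0.362, edgeR). Of the 12 tested, 10 had a negative log2 fold change, while XBP1 (0.21) and SSR4 (0.50) went the other way. Past the threshold, 2 of the 12 were lower, against 0.184% of all genes. They were TNFRSF17, the BCMA receptor of plasma cells, and the elongation factor EAF2. Each passed in 10 of the 16 alternative fits. TNFRSF17 lost the call without obese dog 1, 2 or 4 or normal dog 1 or 3, and EAF2 without obese dog 1, 2 or 5 or normal dog 1 or 3. In obese dog 4 the mean log2 CPM was 3.65 for the plasma cell markers and 4.61 for the 14 B-restricted genes, and in normal dog 1 it was 5.41 and 3.31. Obese dog 4 thus had the highest B-restricted mean of the 8 dogs. Its plasma cell mean was the highest of the obese dogs but below all 3 normal dogs. Whether the 2 sets of genes differ in their response was not tested.

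**Figure D5:**
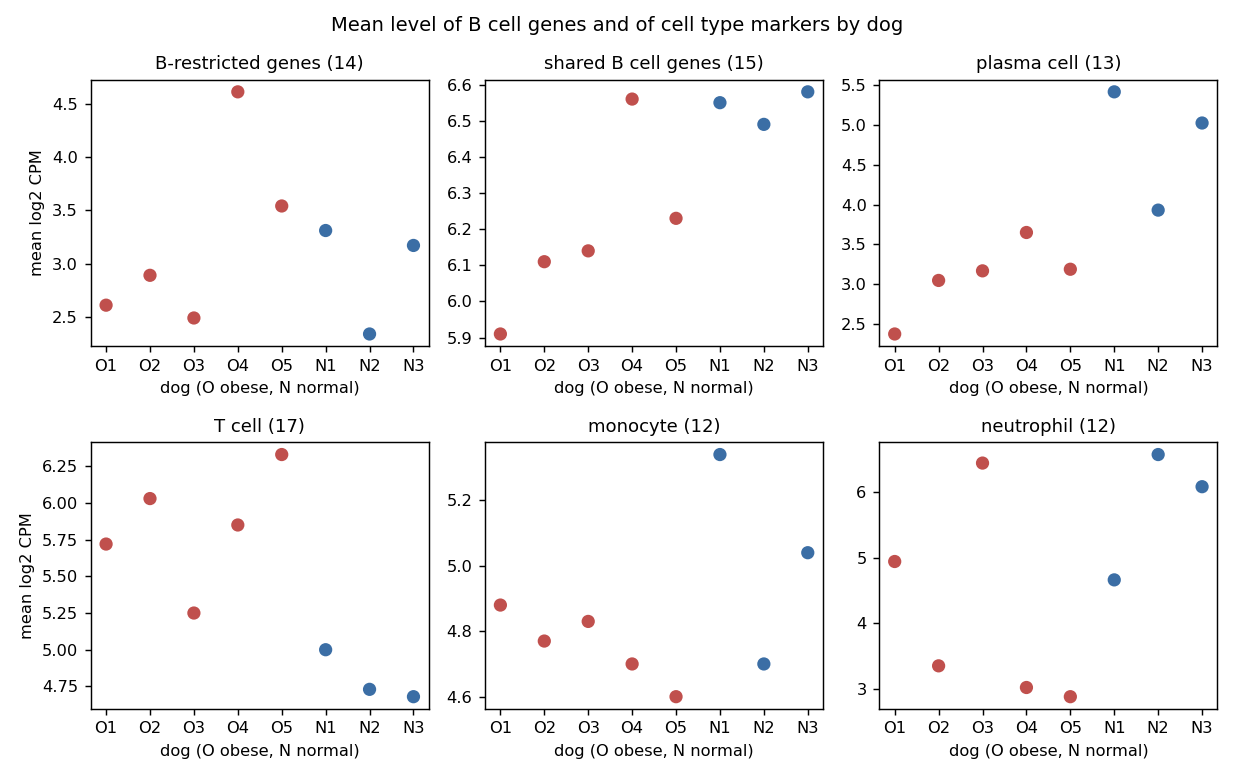
Mean log2 CPM of the 14 B-restricted and 15 shared B cell genes and of 4 lists of cell type markers in each dog (O obese, red, and N normal, blue), each panel on its own scale that does not start at 0. The B-restricted mean is highest in obese dog 4 at 4.61, the plasma cell mean is lower in all obese than in all normal dogs, and the T cell mean is higher in all obese dogs.

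The other genes of B cell identity and of the receptor pathway also gave no call. Of 35 further B cell genes, 33 had a row and 29 were tested, with 0 past the threshold, 17 above and 12 below 0 and a median of 0.24. At an unadjusted p under 0.05 there were 13 of these 29 (44.8%, edgeR), against 15.7% of all genes tested, and the groups did not overlap in 6 (20.7%), against 10.9%. The smallest p belonged to POU2AF1 (OBF-1), the coactivator of OCT factors, which is high in plasma cells too. POU2AF1 had 4.42, 9.52, 5.78, 10.6 and 5.66 CPM in the obese dogs, against 68.5, 18.7 and 39.9 CPM in the normal dogs. Its log2 fold change was −2.55 with a standard error of 0.434 (adjusted p = 0.051, edgeR). Every obese dog was below every normal dog for POU2AF1, and the gene passed in 8 of the 16 alternative fits, among them DESeq2. IRF4, which drives plasma cell fate, had 60.8 ± 20.6 against 167 ± 44.4 CPM and adjusted p = 0.103 (edgeR). IGLL5, annotated as an immunoglobulin lambda-like chain, had 29.2 ± 17.5 against 214 ± 136 CPM, and reads of near-identical light chain genes may be counted there. IRF8, a factor of B cells and dendritic cells, had 97.5 ± 45.3 against 26.9 ± 15.1 CPM (log2 fold change 1.86, adjusted p = 0.136, edgeR).

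Of 42 further genes of receptor signalling, all were tested, with 0 past the threshold, 21 above and 21 below 0 and a median of 0.01. At an unadjusted p under 0.05 there were 11 (26.2%, edgeR), against 15.7% of all genes tested. The groups did not overlap in 11.9%, near the 10.9% of all genes. NFATC2, a calcium-driven factor of T and B cells, had 204 ± 62.5 against 68.3 ± 13.2 CPM (log2 fold change 1.58, adjusted p = 0.0768, edgeR). CD5, found on T cells and a subset of B cells, had 155 ± 94.6 against 35.6 ± 0.930 CPM, with obese dog 3 at 32.6 CPM below the normal dogs. FYN, the SRC-family kinase of T cells, had 440 ± 156 against 193 ± 50.2 CPM. RASGRP3, which couples the B cell receptor to RAS, had 6.62 ± 2.04 against 17.4 ± 6.72 CPM, with no overlap between the groups and adjusted p = 0.148 (edgeR).

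Some of these genes share their place in the genome with others, and the labels used here do not say if the counting took account of strand. An overlapping lncRNA had 2354 counts over the 8 dogs where CD79A had 393, and another had 10007 where POU2F2 had 5436. CD72 overlaps TESK1 (578 and 950 counts), CD37 overlaps TEAD2 (11656 and 3802 counts) and RALGPS2 holds ANGPTL1 (18600 and 1501 counts). Reads of these pairs could not be told apart. EBF1, PAX5, BANK1, AFF3 and PIK3AP1 overlap only genes with fewer counts than their own.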

How the data were processed

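The authors deposited 1 table of whole-number counts per gene symbol for each dog, not normalized. Libraries were made with the Lexogen QuantSeq kit from 500 ng of Trizol-extracted RNA, per the labels' protocols. Bowtie2 and bedtools are named in the submitters' processing notes, and for versions, build and strand these give nothing here. Library totals were 10264202 to 14910982 counts, and all pairs of libraries differed by more than sampling noise. Where a symbol stood in several rows, the row with the highest mean was kept, and no gene studied here was affected. All 29 symbols matched RefSeq (assembly UU_Cfam_GSD_1.0), used only for overlaps; no sequence is shown. The main test was edgeR 4.0.16 in R 4.3.3 (filterByExpr, 20632 genes, TMM, glmQLFit and glmQLFTest with robust estimation, adjusted p under 0.05), with DESeq2 1.42.0 and limma 3.58.1 as alternatives. The edgeR step was tested on simulated data. Standard errors are the absolute log2 fold change over the square root of F. Mean log2 CPM used a prior count of 2. Intervals are exact Poisson 95% intervals and cover counting error only. Each library is a different dog, per the labels. The genes and lists were chosen with earlier results of these data known. CPM by dog is given for the receptor complex genes, MS4A1, PAX5, EBF1 and the 6 other genes with the smallest p, and for BANK1, added after its values were seen. From each further list, genes past the threshold or the 4 smallest p-values are named, and from marker lists the genes past the threshold, those at 0 in every library and up to 2 of the most abundant. Some items are not reported here.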

Additional observations from a re-analysis of the deposited data

Results flagged for a closer look

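In 5 of the 29 genes a single obese dog lay far from the other 4, by a gap over the group's range above Dixon's 95% critical value of 0.71 for 5 samples. In 4 of them it was obese dog 4, with 4.68 CPM of MS4A1, 31.1 CPM of CD22, 7.03 CPM of CD40 and 145 CPM of EBF1. In the other gene, SYK, it was obese dog 3 with 780 CPM. The same library stood apart in the summed neutrophil markers, at 7984 CPM, and in the summed erythroid markers, at 1195 CPM. For normally distributed values chance gives such a gap in about 1 in 20 groups, and 37 were looked at. The values were CPM without a log transform, and all groups came from the same 5 dogs. The number of flags can therefore not be read against that rate.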

How the results depend on the processing

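Of 462 alternative values of the log2 fold change of the 29 genes (16 alternatives, all planned), 427 kept their direction and their side of the threshold, 12 newly passed it and 23 changed sign; 17 genes changed sign in none. The numbers of the 29 genes past the threshold, 0 higher and 0 lower, were 0 and 2 with DESeq2 and 1 and 4 with limma-voom and quality weights. Over leaving out 1 dog they ran from 0 to 1 and from 0 to 4, with 1 and 4 only without obese dog 3. For all genes, 10 higher and 38 lower, they were 599 and 428 with DESeq2 and 1743 and 1926 with limma-voom. Over leaving out 1 dog they ran from 0 to 661 and from 2 to 1023, again highest without obese dog 3. They were 0 and 2 without obese dog 1 or 2 or normal dog 3, 0 and 3 without obese dog 4, 3 and 12 without obese dog 5, 0 and 33 without normal dog 1, and 0 and 20 without normal dog 2. The further pathway lists held 29 B cell genes and 42 signalling genes tested in the main fit. From these lists 5 genes passed higher and 4 lower with DESeq2, which passed 2.90% and 2.07% of all genes. With limma-voom 18 and 14 passed, where 8.45% and 9.34% of all genes did. Leaving out 1 dog, the numbers ran from 0 to 8 and from 0 to 10. They were 0 and 1 with DESeq2 size factors, upper-quartile factors, no filter or a filter of 1 CPM in 5 dogs. With limma-voom CD180 was 0.07 and BLK 0.09. Leaving out 1 dog, the log2 fold change ran from −0.56 to 0.07 for BLK, −0.87 to 0.01 for BLNK, −0.40 to 0.36 for CD180, −0.25 to 0.74 for CD79B, −0.21 to 0.11 for DAPP1, −0.30 to 0.62 for EBF1, −0.99 to 0.08 for FCRLA, −0.38 to 0.24 for POU2F2, −0.42 to 0.08 for RALGPS2 and −0.07 to 1.50 for VPREB3. The cause was not tested. The median of the 29 genes, 0.27, was −0.05 with the filter of 1 CPM in 5 dogs, which left out MS4A1 and VPREB3, and −0.16 without obese dog 4; upper-quartile factors moved the median of all genes from 0.09 to −0.03.

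The dog numbers do not pair the animals, and dogs of the same number did not deviate together (r = −0.0289, −0.209 and 0.00545 for numbers 1, 2 and 3, across genes). With the number as a replicate block, which compares 3 obese with 3 normal dogs, 0 genes passed in either direction, 1634 genes had an unadjusted p under 0.05, and the median of the 29 genes was −0.31. In that fit CD79B was −0.55, VPREB3 −0.32, PAX5 −0.70, EBF1 −0.59, BCL11A −0.16 and DAPP1 0.33. Depth limits VPREB3, MS4A1, SPIB, CD40 and CD79A most, at 393 counts or fewer over all dogs.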

Other observations

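Of the 29 further B cell genes tested, 8 had their highest level in obese dog 4, 7 in normal dog 1 and 6 in obese dog 5. The following 3 were picked from those 8 after their values were seen. TNFRSF13C, the BAFF receptor that keeps mature B cells alive, had 14.2, 29.2, 16.8, 88.5 and 35.9 CPM in the obese dogs, against 16.7, 10.2 and 13.1 CPM in the normal dogs (adjusted p = 0.269, edgeR). FCER2 (CD23), the low-affinity IgE receptor, had 19.2, 13.6, 45.6, 67.5 and 23.9 CPM in the obese dogs, against 11.1, 11.1 and 18.2 CPM in the normal dogs. CIITA, the master regulator of MHC class II genes, had 55.6, 71.7, 21.7, 123 and 104 CPM in the obese dogs, against 41.8, 22.5 and 26.3 CPM in the normal dogs, with obese dog 3 alone below the normal dogs. None of the 3 passed the threshold with all dogs in edgeR. CIITA passed without obese dog 3 and with limma-voom, and TNFRSF13C with limma-voom.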
